A study of Mus musculus with 6 samples.

Results

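The report covers 34 imprinted genes in whole testes of mice at postnatal day 5. They are the rows of the deposited table whose Ensembl identifiers map to a given list of imprinted gene symbols, and all 34 symbols had a row among the 57170 identifiers of the table. Of these genes 22 are expressed mainly from the paternal chromosome and 10 mainly from the maternal chromosome, by textbook knowledge. The other 2, Gnas and Blcap, have transcripts that differ in their parental origin. The libraries are 2 wild-type libraries, WT-1 and WT-2, and 4 libraries labelled sKO, sKO-1 to sKO-4, in which Mdm2 was conditionally deleted in germ cells before meiosis. MDM2 is the ubiquitin ligase that holds the p53 protein at a low level. All libraries hold polyadenylated RNA of testis at the same age. Not given in the sources used here: the Cre driver, the strain, the alleles carried by the wild-type mice and whether each library came from its own animal. The p-values therefore measure the spread between these libraries, which may be technical. RNA of a whole organ was sequenced, so the germ cells in which the deletion was made contribute only a part of it.

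Imprinted genes are transcribed mainly from 1 of the parental copies. The choice is set by DNA methylation that is laid down differently in eggs and sperm and kept at imprinting control regions in the cells of the body, while germ cells erase it and write it anew. Many imprinted genes are abundant in fetal and newborn tissue and fall silent as growth slows, and they often lie in clusters in which a paternally expressed growth gene neighbours a maternally expressed gene or noncoding RNA. Read counts of a gene do not separate its parental copies, so the values below are total transcript levels and carry no measure of imprinting itself.

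The 6 libraries held 17.99 to 18.39 M (mega) counts each. Mdm2, the targeted gene, stood at 67.2 and 75.9 CPM (counts scaled to a common library total, with TMM scaling) in WT-1 and WT-2 and at 37.6, 47.3, 41.8 and 45.1 CPM in sKO-1 to sKO-4. It fell by 0.74 on the log2 scale (SE 0.11, edgeR adjusted p = 0.0241). All 16 germ cell marker genes were tested and had log2 fold changes under 0, with a median of -2.33, and 15 fell at an edgeR adjusted p under 0.05. The other, Kit, had a log2 fold change of -0.51 (edgeR adjusted p = 0.222). Their summed level was 959 and 669 CPM in WT and 143 to 224 CPM in sKO, and none was at 0 in all libraries. In bulk RNA, fewer cells of a type and less RNA per cell cannot be told apart. The part of the lower germ cell markers in the fall of Mdm2 was not tested. The first principal component of all genes tested, with 38.1% of the variance, did not separate the genotypes. Its scores were -52.6 for WT-1, 13.8 for WT-2, and -24.3, -20.8, 47.2 and 36.7 for sKO-1 to sKO-4. A cut at 0 put WT-1, sKO-1 and sKO-2 in subset 1 and WT-2, sKO-3 and sKO-4 in subset 2. In each subset the sKO libraries scored above the WT library, so this component also shifted with genotype. The second component, with 32.6% of the variance, was 31.3 and 52.9 in WT and at most 0.006 in sKO. The labels name no batch, the subsets were read from the expression values themselves, and a fit with the subset as a term is given beside the fit without it.

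Most of the imprinted genes had slightly higher levels in sKO than in WT, and no single one passed the test across all genes. The count filter left 31 of the 34. Of these, 0 were higher at an adjusted p under 0.05 by edgeR, against 0.124% of the 17707 genes tested, and 0 were lower, against 2.30%. The smallest adjusted p was 0.0584, for Peg3. At an unadjusted p under 0.05, 6 were higher (background 4.17%) and 0 lower (background 8.91%). By other tools on the same genes, DESeq2 placed 2 above the threshold, Peg3 and Zim1, where it called 0.633% of all genes higher, and limma-voom placed 1, Peg3, where it called 0.102%. The log2 fold change was above 0 for 27 of 31, against 55.3% of all genes, and its median was 0.25, against 0.03 for all genes. The values ran from -0.18 for Zdbf2 to 0.52 for Airn. With library sizes set by Sertoli cell genes in place of TMM, which moves the median of all genes to -0.14, 23 of 31 were above 0 and the median of the imprinted genes was 0.08. The genes outside the test were Rasgrf1, Phlda2 and Slc22a18, none of which had more than 9 counts in any library.

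With the library subset as a term, 10 of the 31 were higher and 0 lower by edgeR, where 4.97% of all genes were higher and 8.65% lower. The 10 were Peg3, Zim1, Plagl1, Peg10, Dlk1, Meg3, Mest, Slc38a4, Airn and Impact. Their number depended on the libraries, and so did the share of all genes called higher. It was 3 without WT-1 (all genes 0.266%) and 3 without WT-2 (1.66%). It was 13 (5.81%) when sKO-1 was left out, 8 (2.52%) when sKO-4 was, and 7 when sKO-2 (2.60%) or sKO-3 (1.65%) was. Peg3 and Peg10 were above the threshold in all 6 of these fits. In 8 of the 31 genes all 4 sKO libraries lay above both WT libraries, against 9.79% of all genes, and in 0 all 4 lay below, against 13.3%. These 8 were Peg3, Zim1, Airn, Grb10, Ndn, Impact, Slc38a4 and Blcap. Beside these values, germ cell markers were lower in sKO as given above. Median log2 fold changes of markers of other cells were 0.14 for 15 Sertoli genes, 0.33 for 12 Leydig genes, 0.20 for 12 stromal genes, 0.23 for 10 endothelial genes, -0.22 for 10 peritubular myoid genes and -0.06 for 10 macrophage genes. Of 8 erythroid genes 6 were tested, with a median of 0.39, and their summed level was 405 and 402 CPM in WT and 487 to 709 CPM in sKO, without overlap. The part of the cell composition in the values of the imprinted genes was not tested.

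**Figure D1:**
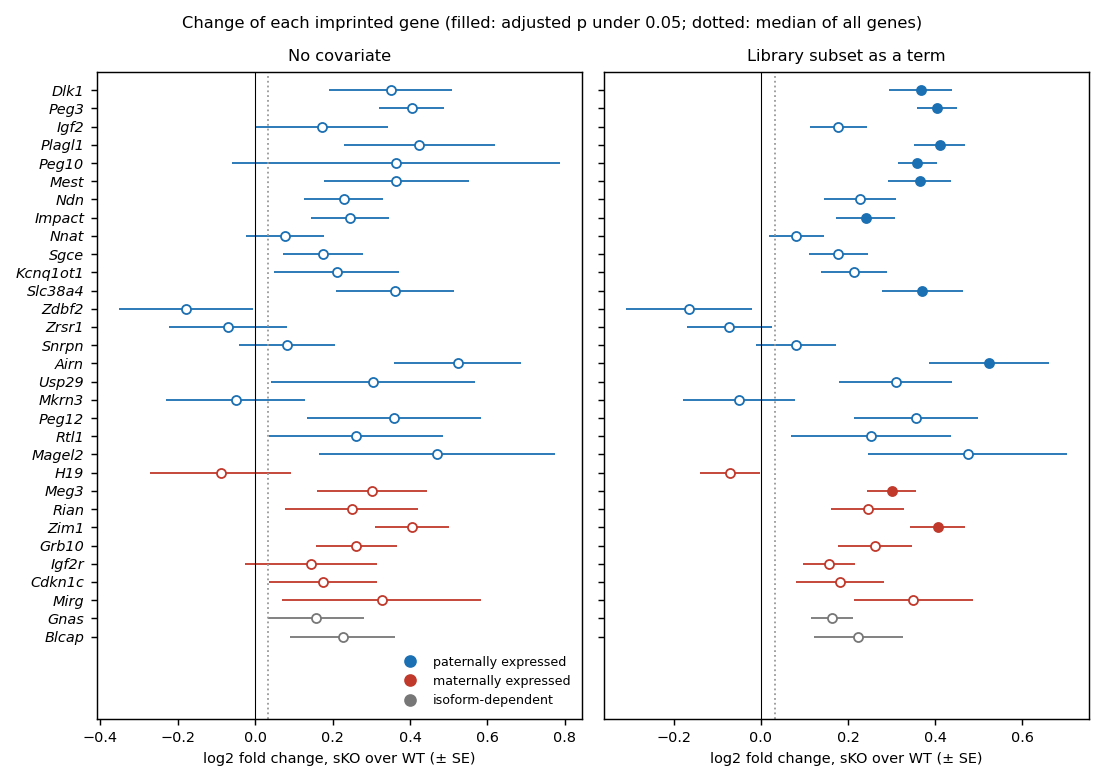
log2 fold change of sKO over WT (x axis, ± SE) for each of the 31 imprinted genes tested, without a covariate on the left and with the library subset as a term on the right; filled points have an adjusted p under 0.05 and the dotted line is the median of all genes. Of the 31 points on the left, 27 lie above 0 and none is filled, and 10 are filled on the right.

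The Peg3 domain on chromosome 7 held the genes with the smallest adjusted p. Peg3, a paternally expressed zinc finger gene named for this property, stood at 385 and 405 CPM in WT-1 and WT-2 and at 516, 502, 548 and 524 CPM in sKO-1 to sKO-4. The groups did not overlap, and both were narrow: WT averaged 395 ± 13.9 CPM (SD, n = 2) against 523 ± 19.1 CPM (SD, n = 4) for sKO. The log2 fold change was 0.40 (SE 0.08), with an edgeR adjusted p of 0.0584 without a covariate and 0.00121 with the subset term. Zim1, a zinc finger gene next to Peg3 that is expressed from the maternal copy, stood at 132 and 141 CPM in the WT pair and at 180, 168, 199 and 176 CPM in sKO. Again all sKO libraries were above both WT libraries, and the log2 fold change was 0.41 (SE 0.10, edgeR adjusted p = 0.0864, and 0.00445 with the subset term). Opposite parental classes thus had nearly the same fold change here. The log2 ratio of Peg3 to Zim1 counts was 1.55 and 1.52 in WT and 1.46 to 1.58 in sKO, a pair chosen for this comparison after the values were seen. Usp29, a paternally expressed deubiquitinase gene that starts beside Peg3 on the other strand, had 5.97 and 9.01 CPM in WT and 7.41 to 11.4 CPM in sKO. Its groups overlapped (log2 fold change 0.30, SE 0.26).

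The starts of Peg3 and Usp29 lie 163 bases apart and face away from each other, and the whole interval between them is printed because 1 stretch of DNA serves as upstream sequence of both. The Zim1 promoter, the 250 bases before its start, is printed beside it as the neighbour with the opposite parental class and a like fold change. Both are RefSeq sequences of GRCm38.p6, at chr7:6730420-6730582 (plus strand) and chr7:6696433-6696682 (minus strand), and lie in intergenic or promoter sequence before the annotated starts. Capitals mark a match on either strand to TGCCGC, the core hexamer bound by ZFP57, the zinc finger protein that guards methylated imprints.
Peg3-Usp29 interval: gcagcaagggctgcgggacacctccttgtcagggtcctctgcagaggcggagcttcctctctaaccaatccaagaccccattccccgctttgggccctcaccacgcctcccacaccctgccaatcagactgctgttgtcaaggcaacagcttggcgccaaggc
Zim1 promoter: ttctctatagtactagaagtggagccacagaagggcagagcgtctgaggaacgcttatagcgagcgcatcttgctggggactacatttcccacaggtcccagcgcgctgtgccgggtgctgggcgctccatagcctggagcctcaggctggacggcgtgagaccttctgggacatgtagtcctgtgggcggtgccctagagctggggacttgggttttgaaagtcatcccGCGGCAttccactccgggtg
The interval holds 5 CpG sites and the Zim1 promoter 14. TGCCGC was found once in the Zim1 promoter, as its reverse complement GCGGCA, and not in the interval, nor was GCCATNTT, the core of the motif of YY1, a zinc finger factor. Over all 32851 RefSeq promoter windows, 8.7% held TGCCGC and 3.9% held GCCATNTT, both strands searched. Of the 34 genes, 28 had a window, 44 windows in all, of which 6 (13.6%) held TGCCGC and 2 (4.5%) held GCCATNTT. A match is a string of letters and not a shown binding site. Sequence after the starts, introns included, was not searched.

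The growth regulators Igf2, Dlk1 and Plagl1, all expressed from the paternal copy, had overlapping groups and log2 fold changes of 0.17 to 0.42. Igf2, the fetal growth factor that signals through the IGF1 and insulin receptors, stood at 303 and 407 CPM in the WT pair and at 377, 328, 465 and 431 CPM in sKO-1 to sKO-4. The groups overlapped, and the log2 fold change was 0.17 (SE 0.17, edgeR adjusted p = 0.778). Dlk1, which encodes a transmembrane protein of the delta-like family, stood at 412 and 594 CPM in the WT pair and at 613, 574, 704 and 673 CPM in sKO. WT-1 was the lowest library and WT-2 lay within the sKO range (log2 fold change 0.35, SE 0.16, edgeR adjusted p = 0.419, and 0.0132 with the subset term). Plagl1, a zinc finger transcription factor known to act on other imprinted genes, stood at 277 and 347 CPM in the WT pair and at 336, 355, 506 and 477 CPM in sKO. In each subset both sKO libraries were above their WT library, while WT-2 was above sKO-1, and the log2 fold change was 0.42 (SE 0.20, edgeR adjusted p = 0.426, and 0.00319 with the subset term).

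Genes that restrain growth, expressed from the maternal copy, had log2 fold changes of 0.14 to 0.26. Grb10, an adaptor that dampens signalling by the insulin and IGF1 receptors, stood at 142 and 144 CPM in the WT pair and at 153, 193, 170 and 170 CPM in sKO. The groups did not overlap, yet the log2 fold change of 0.26 (SE 0.11) had an edgeR adjusted p of 0.340, and of 0.0742 with the subset term. Grb10 is paternally expressed in neurons, and leaving it out of the maternal class moved that class's median log2 fold change from 0.26 to 0.25. Cdkn1c, which encodes the cyclin-dependent kinase inhibitor p57, had 28.0 and 34.8 CPM in WT and 32.6 to 40.5 CPM in sKO (log2 fold change 0.18, SE 0.14). Igf2r, the receptor that takes IGF2 to the lysosome for breakdown, had 156 and 109 CPM in WT and 128 to 165 CPM in sKO (log2 fold change 0.14, SE 0.17), with overlapping groups. With Sertoli library sizes the value for Igf2r was -0.04. Phlda2, which limits placental growth, had 0 to 3 counts in a library, and Slc22a18, a transporter gene beside it, had 1 to 4.

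Noncoding RNAs of the clusters had log2 fold changes from -0.09 to 0.52. H19, the maternally expressed RNA downstream of Igf2, stood at 502 and 752 CPM in the WT pair and at 554, 497, 658 and 650 CPM in sKO, with overlapping groups and -0.09 as log2 fold change (SE 0.18, edgeR adjusted p = 0.911). Meg3, the maternally expressed RNA of the Dlk1 cluster, stood at 463 and 560 CPM in the WT pair and at 544, 587, 727 and 663 CPM in sKO. Only sKO-1 lay between the WT libraries, and the log2 fold change was 0.30 (SE 0.14, edgeR adjusted p = 0.439, and 0.00984 with the subset term). Rian, a maternally expressed host of small nucleolar RNAs in the same cluster, stood at 253 and 309 CPM in the WT pair and at 257, 325, 376 and 379 CPM in sKO, so that its groups overlapped through sKO-1 (log2 fold change 0.25, SE 0.17, edgeR adjusted p = 0.641). Mirg, the microRNA host that follows Rian, was scarce at 10.1 and 5.97 CPM in WT and 8.61 to 11.5 CPM in sKO (log2 fold change 0.33, SE 0.26). Kcnq1ot1, the paternally expressed RNA that silences the Cdkn1c cluster, had 35.1 and 26.9 CPM in WT and 31.8 to 41.1 CPM in sKO (log2 fold change 0.21, SE 0.16).

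Airn, the paternally expressed RNA that runs antisense through Igf2r and silences the paternal Igf2r copy, had the largest fold change of the 31 genes tested. It stood at 9.09 and 8.0 CPM in the WT pair and at 11.3, 12.96, 11.4 and 13.5 CPM in sKO. The groups did not overlap, and the log2 fold change was 0.52 (SE 0.16, edgeR adjusted p = 0.205, and 0.0385 with the subset term). The sources used here do not give the use of strand in counting, so reads of Airn and of unspliced Igf2r RNA may not be separated. The log2 ratio of Airn to Igf2r counts, also chosen after the values were seen, was -4.10 and -3.76 in WT and -3.82 to -3.25 in sKO, and overlapped. The promoters of this antisense pair and of Plagl1, the 250 bases before each start, are shown to set the CpG content of an antisense pair side by side, with Plagl1 as a gene that has the hexamer at its start. They are RefSeq sequences of GRCm38.p6, at chr17:12741061-12741310 (Airn, plus strand), chr17:12769707-12769956 (Igf2r, minus strand) and chr10:13090582-13090831 (Plagl1, plus strand), with capitals as before.
Airn promoter: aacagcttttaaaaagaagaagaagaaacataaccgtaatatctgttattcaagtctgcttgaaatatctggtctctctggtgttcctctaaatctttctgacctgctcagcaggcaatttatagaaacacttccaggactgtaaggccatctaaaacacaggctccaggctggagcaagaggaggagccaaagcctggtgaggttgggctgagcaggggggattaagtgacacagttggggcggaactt
Igf2r promoter: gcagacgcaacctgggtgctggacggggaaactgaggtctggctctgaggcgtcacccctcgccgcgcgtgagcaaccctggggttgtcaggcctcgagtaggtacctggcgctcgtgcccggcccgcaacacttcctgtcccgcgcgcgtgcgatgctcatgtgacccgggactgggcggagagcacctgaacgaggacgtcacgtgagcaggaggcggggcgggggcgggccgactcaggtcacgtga
Plagl1 promoter: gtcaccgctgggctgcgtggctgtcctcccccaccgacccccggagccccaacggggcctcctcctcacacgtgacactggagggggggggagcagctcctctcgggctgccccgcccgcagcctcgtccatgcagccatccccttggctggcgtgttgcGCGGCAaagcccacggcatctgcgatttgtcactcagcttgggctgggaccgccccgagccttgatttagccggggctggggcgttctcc
The window of Airn holds 2 CpG sites, that of Igf2r 27 and that of Plagl1 19, where the median was 9 over the 44 windows of imprinted genes and 6 over all windows. Of these 3 only the Plagl1 window holds TGCCGC, again as its reverse complement. Bases after the starts were neither counted nor searched.

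Among the genes derived from retrotransposons, Peg10 had the largest SE of all members tested. It encodes a gag-pol-like protein with a known role in placenta and stood at 162 and 339 CPM in WT-1 and WT-2 and at 207, 205, 443 and 436 CPM in sKO-1 to sKO-4. The 3 libraries of subset 1 lay at 162 to 207 CPM and the 3 of subset 2 at 339 to 443 CPM, and in each subset both sKO libraries were above the WT library. The log2 fold change of 0.36 had an SE of 0.42 and an edgeR adjusted p of 0.823, and with the subset term an SE of 0.04 and an edgeR adjusted p of 0.00169. Sgce, the epsilon-sarcoglycan gene that shares its promoter region with Peg10, had 46.3 and 52.4 CPM in WT and 51.4 to 60.6 CPM in sKO. Its log2 difference between the subsets was 0.14, against 1.08 for Peg10. Rtl1, the retrotransposon-like gene of the Dlk1 cluster, had 3.998 and 4.11 CPM in WT and 4.10 to 5.52 CPM in sKO, with overlap.

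Genes of the Snrpn cluster on chromosome 7, the counterpart of the human Prader-Willi region, gave no call in either fit. Ndn, which encodes the MAGE family protein necdin, had 94.3 and 93.4 CPM in WT and 96.8, 120, 112 and 110 CPM in sKO. All sKO libraries were above both WT libraries, and the log2 fold change was 0.23 (SE 0.10, edgeR adjusted p = 0.408). Magel2, another MAGE family gene, was scarce at 2.34 and 1.63 CPM in WT and 2.31 to 3.21 CPM in sKO. Snrpn, which encodes a splicing protein, had 21.1 and 20.7 CPM in WT and 20.1 to 23.6 CPM in sKO. Peg12, of the Frat family, had 5.09 and 6.42 CPM in WT and 6.25 to 8.44 CPM in sKO, and Mkrn3, a RING finger gene known to hold back puberty, had 8.93 and 7.49 CPM in WT and 7.22 to 8.79 CPM in sKO. Mkrn3 was 1 of 4 tested members with a log2 fold change under 0, at -0.05 (SE 0.18).

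Gnas, the gene of the stimulatory G protein alpha subunit that couples gonadotropin receptors to cyclic AMP, stood at 724 and 907 CPM in the WT pair and at 841, 855, 964 and 978 CPM in sKO, with overlap, and its log2 fold change was 0.16 (SE 0.12, edgeR adjusted p = 0.697). Mest, which encodes a protein of the hydrolase fold family, stood at 106 and 142 CPM in the WT pair and at 125, 150, 182 and 183 CPM in sKO. Its groups overlapped through sKO-1, and the log2 fold change was 0.36 (SE 0.19, edgeR adjusted p = 0.489, and 0.0131 with the subset term). Mest and Copg2 share exon sequence on opposite strands, and Copg2 holds 67.1% as many counts, so part of the Mest reads may belong to Copg2.

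Impact, a regulator of translation that restrains the kinase GCN2, stood at 51.6 and 52.5 CPM in the WT pair and at 55.5, 60.4, 66.8 and 63.8 CPM in sKO. The groups did not overlap (log2 fold change 0.24, SE 0.10, edgeR adjusted p = 0.357, and 0.0481 with the subset term). Slc38a4, an amino acid transporter gene, stood at 22.5 and 30.0 CPM in the WT pair and at 32.9, 30.3, 37.4 and 34.1 CPM in sKO, with sKO-2 barely above WT-2 (log2 fold change 0.36, SE 0.15, edgeR adjusted p = 0.367, and 0.0324 with the subset term). Blcap, whose transcripts differ in parental origin, had 34.8 and 33.6 CPM in WT and 47.8, 37.6, 37.9 and 36.6 CPM in sKO, without overlap and with sKO-1 apart from the rest (log2 fold change 0.23, SE 0.13). Nnat, the neuronatin gene that lies in an intron of Blcap, had 49.3 and 58.3 CPM in WT and 53.7 to 59.9 CPM in sKO.

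Zdbf2 and Zrsr1 lay on the other side. Zdbf2, a paternally expressed zinc finger gene, had 39.4 and 25.4 CPM in WT and 26.9 to 30.1 CPM in sKO. WT-1 was above every sKO library and WT-2 below every one, so the log2 difference was -0.53 within subset 1 and 0.21 within subset 2. Zrsr1, a retrogene related to a splicing factor, had 21.9 and 25.3 CPM in WT and 19.4 to 26.2 CPM in sKO (log2 fold change -0.07, SE 0.15). It lies in an intron of Commd1 on the opposite strand and shares exon bases with it, and Commd1 had 136% as many counts. Rasgrf1, a Ras exchange factor gene that is paternally expressed in brain, had 2 to 9 counts in a library.

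**Figure D2:**
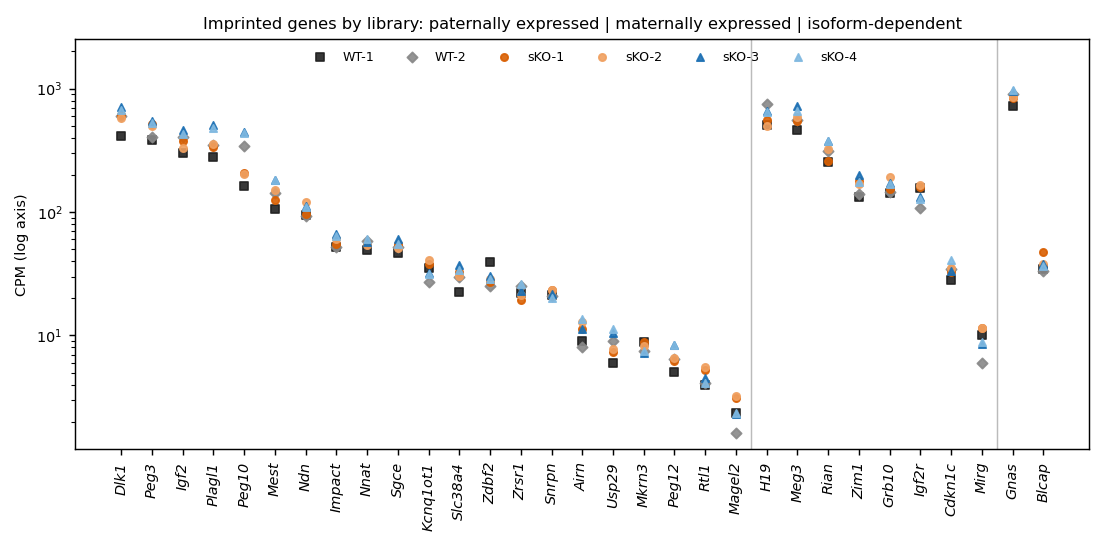
CPM (y axis, log scale) of each of the 31 imprinted genes tested, with 1 point for each of the 6 libraries, in the order paternally expressed, maternally expressed and isoform-dependent genes. The libraries of Peg10 fall into a low set of 162 to 207 CPM and a high set of 339 to 443 CPM that each hold both genotypes.

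Both parental classes had medians above that of all genes. The 21 paternally expressed genes tested had a median log2 fold change of 0.26, with 18 of 21 above 0, and the 8 maternally expressed genes had a median of 0.26, with 7 of 8 above 0. With the subset term 8 of 21 paternally and 2 of 8 maternally expressed genes were higher by edgeR (4.97% of all genes). The subset was read from the same values that were tested. In summed CPM, the paternally expressed genes held 2062 and 2657 in WT and 2588 to 3333 in sKO, and the maternally expressed genes held 1686 and 2056 in WT and 1892 to 2304 in sKO. Both sums overlapped between the groups and both were lowest in WT-1. The difference between the classes was not tested, since members are not replicates.

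Ratios of paired genes within a library need no scaling between libraries. The pairs were neighbours in a domain, except for Igf2 on chromosome 7 and its receptor Igf2r on chromosome 17. The log2 ratio of Igf2 to H19 counts, genes that compete for the same enhancers from opposite parental copies, was -0.73 and -0.88 in WT and -0.56, -0.60, -0.50 and -0.59 in sKO. This was the single ratio, of the 6 planned ones that were computed, in which the groups did not overlap, and its mean was 0.25 higher in sKO. It differed by only -0.03 between the subsets, although Igf2 and H19 themselves differed between them by 0.37 and 0.40. The log2 ratio of Dlk1 to Meg3 was -0.17 and 0.09 in WT and -0.05 to 0.17 in sKO. The ratios of Peg10 to Sgce and of Igf2 to Igf2r moved with the subset instead, by 0.95 and 0.76, and differed by 0.18 and 0.02 between genotypes. Peg3 to Usp29 and Nnat to Blcap overlapped between the genotypes as well. No test was made of the ratios, and the share of other gene pairs without overlap was not computed. Among single genes tested, all 4 sKO libraries lay above both WT libraries in 9.79% and below both in 13.3%.

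**Figure D3:**
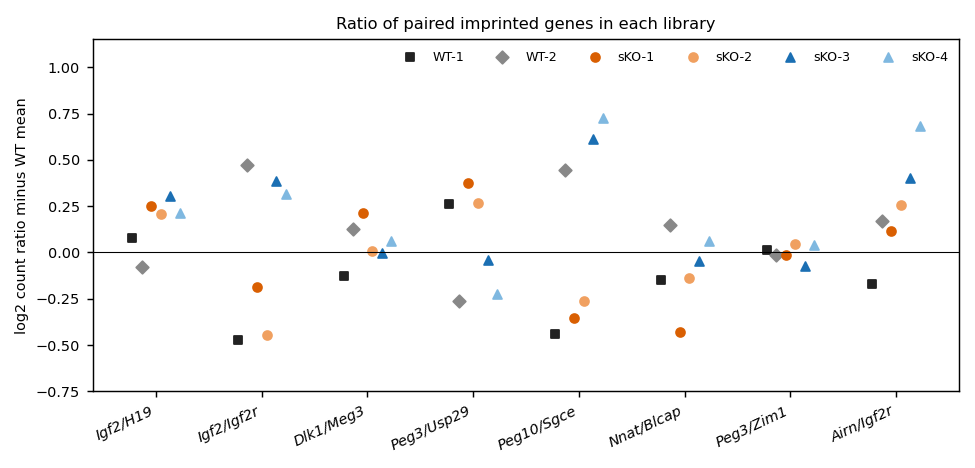
log2 ratio of the counts of paired imprinted genes in each library (y axis, minus the mean of the 2 WT libraries), with 1 point for each library and pair. For Igf2 to H19 all 4 sKO points lie above both WT points, and for Peg10 to Sgce the points divide by library subset.

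Per kilobase of merged exon length (gene models of GRCm38), the genes spanned a wide range of levels. The WT mean was highest for H19 at 255 CPM per kb, followed by Dlk1 at 88.9, Gnas at 72.9 and Igf2 at 62.0 CPM per kb. Plagl1 at 39.9, Peg10 at 37.6, Mest at 31.5, Peg3 at 29.6, Nnat at 29.4 and Meg3 at 28.3 CPM per kb came next, and the last 4 lay close together. The lowest of the genes tested were Magel2 at 0.43, Usp29 at 0.41 and Kcnq1ot1 at 0.33 CPM per kb. In sKO the order of the first 4 was the same, with 240, 113, 81.3 and 69.9 CPM per kb.

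Subset differences larger than the genotype difference were about as frequent as in genes at large, while subset 2 was more often the higher one. The log2 difference between the subsets was larger than the genotype difference in 17 of 31, where the share over all genes was 59.2%. Subset 2 was higher in 20 of 31 (47.6% of all genes), with a median log2 difference of 0.14 (all genes -0.02). After Peg10 with 1.08, the largest differences were Usp29 with 0.55, Plagl1 with 0.45, Mest with 0.42 and H19 with 0.40. Lower in subset 2 were Mirg with -0.51, Magel2 with -0.46, Igf2r with -0.38 and Kcnq1ot1 with -0.33. In the same contrast the 12 stromal markers had a median of 0.32 and the 12 Leydig markers of 0.39. The medians were 0.19 for erythroid, 0.16 for endothelial, 0.11 for peritubular myoid, 0.07 for Sertoli and 0.04 for macrophage markers. That of the germ cell markers was -0.21. The part of all these cells in the difference was not tested. Each subset holds 1 WT and 2 sKO libraries, and 27 of 31 imprinted genes had a log2 fold change above 0 in both. The share of all genes above 0 in both was not computed, so this count has no background to be set against. The fit of all 6 libraries without the subset term, which uses the same libraries, also had 27 of 31 above 0 (all genes 55.3%). In subset 1 alone the median was 0.26 for the imprinted genes and 0.021 for all genes. In subset 2 alone these medians were 0.25 and 0.0018.

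**Figure D4:**
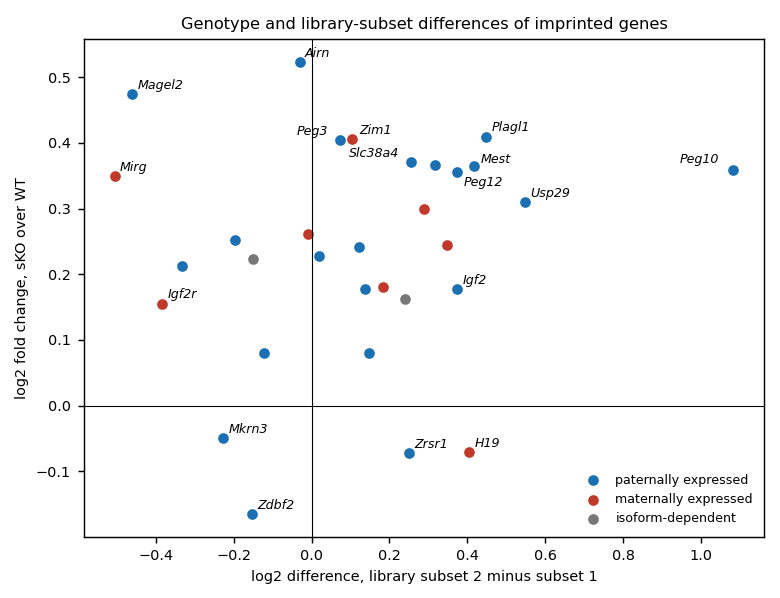
log2 fold change of sKO over WT (y axis, subset term in the fit) against the log2 difference between library subset 2 and subset 1 (x axis) for the 31 imprinted genes tested, coloured by parental class. Peg3, Zim1 and Airn lie near 0 on the x axis, and Peg10 lies at 1.08.

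Imprinted genes outside the list had a median near that of all genes. Of 46 such genes 35 were tested, with a median log2 fold change of 0.03, where all genes had 0.03 and the members 0.25. Imprinting in testis was not measured for either set. Of these 0 were higher (all genes 0.124%) and 1 lower (all genes 2.30%) by edgeR. The lower gene was Sfmbt2, a Polycomb-related gene listed as imprinted, which fell by 0.98 on the log2 scale (edgeR adjusted p = 0.0282). It stood at 29.4 and 22.9 CPM in WT and at 11.7 to 15.3 CPM in sKO. With the subset term 3 of the 35 were higher (all genes 4.97%) and 5 lower (all genes 8.65%).

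Of 24 genes that set or keep imprints, 22 were tested, with a median log2 fold change of -0.04. Without the subset term 0 were higher (all genes 0.124%) and 4 lower (all genes 2.30%) by edgeR. With the subset term 1 was higher (all genes 4.97%) and 8 were lower (all genes 8.65%). The 4 lower genes without that term follow. Dnmt1, the maintenance DNA methyltransferase, fell by 0.52 on the log2 scale (edgeR adjusted p = 0.0328), from 263 and 235 CPM in WT to 161 to 181 CPM in sKO. Hells, a chromatin remodeller needed for DNA methylation, fell by 0.80 (edgeR adjusted p = 0.0354). Dnmt3b, a de novo methyltransferase, fell by 0.96 (edgeR adjusted p = 0.0390), and Eed, a subunit of Polycomb repressive complex 2, fell by 0.50 (edgeR adjusted p = 0.0396). Zfp57 did not pass the test, at 29.3 and 27.3 CPM in WT and 32.1 to 34.5 CPM in sKO. In the same libraries 15 of 16 germ cell markers and 2 of 15 proliferation genes, Ccnb1 and Mcm7, were lower (median log2 fold change of the latter list -0.21), and their part in these 4 values and in Sfmbt2 was not tested.

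The 22 genes of IGF signalling were all tested, with a median log2 fold change of 0.23. By edgeR 0 were higher (all genes 0.124%) and 1 was lower (all genes 2.30%). The lower gene was Igf2bp1, an RNA-binding protein that binds Igf2 messages, which fell by 1.74 on the log2 scale (edgeR adjusted p = 0.0161), from 51.5 and 36.5 CPM in WT to 9.65 to 16.8 CPM in sKO. Igf1r, the receptor through which IGF2 signals, had a log2 fold change of 0.01 (SE 0.09), and the ligand Igf1 of 0.27 (SE 0.18). With the subset term 7 of the 22 were higher (all genes 4.97%) and 2 lower (all genes 8.65%). The part of the lower germ cell markers in the value of Igf2bp1 was not tested.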

How the data were processed

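Whole-testis RNA was enriched for polyadenylated messages on beads, per the labels' protocols. The values are expected counts that the authors deposited for 57170 identifiers in 6 libraries. The submitters' processing notes name fastp, STAR, RSEM and the build mm39. Not given in the sources used here: the annotation, the versions and the use of strand. RSEM divides reads shared between genes, so overlapping genes are uncertain, and 19.4% of the deposited expected counts were not whole. GENCODE M21 (GRCm38) matched 51742 identifiers (90.5%), holding 99.2% of the counts, and was used for names and exon lengths only. Promoter sequences are RefSeq sequences of GRCm38.p6, and no coordinate was carried between builds.

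Libraries were grouped by title and genotype label, 2 WT and 4 sKO; the design text speaks of 3 per group. Each library was counted as 1 replicate. Between libraries of 1 genotype the chi-square per gene was 6.85 for sKO-1 with sKO-2 and 4.07 for sKO-3 with sKO-4. For the other pairs of 1 genotype, which cross the subsets, it was 20.3 to 24.8. These values do not show whether the libraries came from separate animals. Counts were rounded, filtered by filterByExpr (minimum count 10, leaving 17707 genes), scaled by TMM and tested with edgeR 4.0.16 (R 4.3.3, glmQLFit and glmQLFTest, two-sided, all 6 libraries, no covariate), with Benjamini-Hochberg adjustment over all genes and a threshold of 0.05. SE is the log2 fold change divided by the root of F. At this depth counting error is small beside the spread between libraries, except for the genes with few counts. log2 CPM for the principal components carry a prior count of 2. Alternatives were DESeq2 1.42.0, limma-voom (limma 3.58.1), other scalings and filters, unrounded counts, leaving out each library, the replicate block and, chosen after seeing the data, the subset term and each subset alone. Since the subsets were read from the same values that were tested, p-values with the subset term can be too small. The steps were tested on simulated data.

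The members, parental classes and gene lists were chosen with earlier results of these data known. Values in every library were printed for members with an adjusted p under 0.05 in either fit or among the 12 with the highest mean CPM. They were also printed for tested members whose groups did not overlap. Rasgrf1 and Phlda2, which were not tested, had CPM below both WT libraries in all 4 sKO libraries, with at most 9 and 3 counts. From other lists, genes past the threshold were named, up to 4. Zfp57, Igf1 and Igf1r were named for their function, after their values were seen. The ratio of Cdkn1c to Phlda2 was not computed, because Phlda2 had 0 to 3 counts.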

Additional observations from a re-analysis of the deposited data

Results flagged for a closer look

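Of 39 sets of sKO values checked for a library far from the others, 1 stood out: Blcap had 47.8 CPM in sKO-1, while the other sKO libraries had 36.6 to 37.9 CPM. Its gap to the nearest library was 0.883 of the range of the 4 sKO libraries (Dixon's test for 4 values, 95% level). Chance gives such a gap in about 5% of groups.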

How the results depend on the processing

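No imprinted gene passed the threshold under RLE factors, Sertoli library sizes, the other count filters, unrounded counts, the replicate block or any left-out library without the subset term. DESeq2 placed 2 higher, and limma-voom, upper-quartile factors and no scaling placed 1 each, Peg3, where 0.633%, 0.102%, 0.130% and 0.0847% of all genes were called higher. With the subset term 10 were higher; subset 1 alone gave 4 higher and 1 lower (Zdbf2; all genes 1.53% and 5.15%), and subset 2 alone 7 higher and 1 lower (H19; all genes 1.52% and 3.22%). Leaving out 1 library from the fit with the subset term gave 3 (without WT-1 or WT-2) to 13 (without sKO-1) higher and 0 to 1 lower, the 1 being Zdbf2 without WT-2 (5.38% of all genes lower); it was 7 without sKO-2 or sKO-3 and 8 without sKO-4. The same fits called 49 of all genes higher when WT-1 was left out, 310 when WT-2 was, 1015 when sKO-1 was and 289 to 456 for the other sKO libraries. The adjusted p of Peg3 ran from 0.00049 to 0.389 over the alternatives.

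Over all genes, 22 were higher and 408 lower. DESeq2 gave 112 and 685, Sertoli library sizes 10 higher, the subset term 880 and 1531, subset 1 alone 282 and 946, and subset 2 alone 267 higher. Leaving out 1 library gave 2 to 7 higher and 1 to 225 lower: 2 and 1 when WT-1 was left out, 7 and 193 when WT-2 was, and without an sKO library 5 to 7 and 103 to 225, from sKO-2 to sKO-4. The labels give both groups replicates 1 and 2. The correlation of the deviations was 0.42 for number 1 and -0.44 for number 2. The deviations of the 2 WT libraries mirror each other, and sKO-1 and sKO-2 correlated with WT-1 at 0.42 and 0.44. These 3 libraries form subset 1, so the check cannot decide whether the numbers pair the libraries. The replicate block on the 4 libraries numbered 1 and 2 gave 19 higher and 268 lower genes, and the same libraries without the block 9 and 187.

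The median log2 fold change of the paternally expressed genes was 0.14 with the replicate block, 0.14 on those 4 libraries without it and 0.095 with Sertoli library sizes. That of the maternally expressed genes was 0.086 with Sertoli library sizes and 0.19 with the replicate block. The class with the higher median changed with the setting: paternal and maternal medians were 0.17 and 0.21 without WT-1, and 0.30 and 0.22 in subset 1 alone. The cause was not tested, here or for the reversals, other than that fewer libraries were used. Signs turned for some genes. Over the left-out libraries the log2 fold change ran from -0.35 to 0.20 for H19, -0.026 to 0.37 for Igf2, -0.033 to 0.76 for Mirg, -0.12 to 0.43 for Igf2r, -0.073 to 0.97 for Peg10, -0.039 to 0.17 for Nnat, -0.20 to 0.082 for Mkrn3, -0.17 to 0.0089 for Zrsr1 and -0.49 to 0.17 for Zdbf2; the sign turned without WT-1 for Igf2, Peg10, Nnat, Mkrn3 and Zdbf2 and without WT-2 for the other 4. With the replicate block it turned for Igf2 (-0.011), Peg10 (-0.20) and Mkrn3 (0.044), and on the same libraries without it for Igf2 (-0.021), Peg10 (-0.29) and Mkrn3 (0.038). With Sertoli library sizes it turned for Igf2r (-0.045), Snrpn (-0.089), Nnat (-0.089) and Gnas (-0.0060). H19 had 0.043 in subset 1 alone and Zdbf2 0.21 in subset 2 alone. With 1 WT library left, the fit takes its variation from the sKO libraries, and counts under 10 limited Rasgrf1, Phlda2 and Slc22a18.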
